A study of Mus musculus with 6 samples.

Results

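The 7 genes of the fetal Lin28, Igf2bp and Hmga families (Lin28a, Lin28b, Igf2bp1, Igf2bp2, Igf2bp3, Hmga1 and Hmga2) were followed in cells sorted from the livers of mouse fetuses. They were taken by name as an oncofetal RNA-binding and chromatin programme, 7 of the 54532 genes in the deposited table, and all 7 were found. There were 3 libraries of embryonic day 18 (E18) and 3 of embryonic day 16 (E16), each set lettered A, B and C. Fetuses of both days were of the CD-1 strain and of genotype Sm22-Cre/ROSA26RYFP, and cells positive for eYFP were sorted from dissociated liver. In these mice the Sm22 (Tagln) promoter drives Cre, and Cre switches on eYFP for good, so the mark records that the promoter was once active in a cell or its ancestors and does not show its present state. Tagln itself was low, at 3.14 ± 0.258 TPM at E18 and 1.06 ± 0.408 TPM at E16 (SD, n = 3 each). TPM is a length-normalised abundance with a fixed total per library. Whether libraries of the same day stem from different litters is not stated in the labels, so p-values reflect only how these libraries vary, and that variation may be technical.

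Lin28a and Lin28b are RNA-binding proteins that hold back the maturation of let-7, a family of small RNAs, by binding the let-7 precursor, in part at a GGAG motif in its loop. Mature let-7 in turn represses messenger RNAs that carry matches to its seed, among them those of Lin28b, Igf2bp1 and Hmga2, so that Lin28 and let-7 hold each other down. The Igf2bp proteins bind, stabilise and localise messenger RNAs such as Igf2, H19, Actb and Myc, and the Hmga proteins are AT-hook factors that bend DNA and open chromatin. In the mouse most of these genes, though not all, are known as fetal genes whose levels drop in many organs toward birth. In the haematopoietic cells of the liver Lin28b and Hmga2 are known to set fetal stem cell properties.

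The let-7 family shares 1 seed (bases 2 to 8), which is why a single motif can be sought in all 7 genes. Mature sequences came from RefSeq (GRCm38.p6) for 13 family genes, of which 11 had a listed arm with the seed GAGGUAG, in 9 distinct mature sequences. All 9 are given below, 5′ to 3′ with the seed in capitals, since the genes that hold their precursors enter the results, and miR-202-3p is shown because its seed differs.
let-7a-5p: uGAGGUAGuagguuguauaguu
let-7b-5p: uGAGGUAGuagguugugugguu
let-7c-5p: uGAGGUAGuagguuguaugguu
let-7d-5p: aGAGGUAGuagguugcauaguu
let-7e-5p: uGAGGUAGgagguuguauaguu
let-7f-5p: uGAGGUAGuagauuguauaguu
let-7g-5p: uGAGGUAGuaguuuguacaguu
let-7i-5p: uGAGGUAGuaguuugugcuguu
miR-98-5p: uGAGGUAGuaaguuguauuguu
miR-202-3p: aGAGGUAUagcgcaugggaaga

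The letters GGAG stood between the arms in 8 of the 12 hairpins that list both arms, and were not found there in let-7b, let-7c-2, miR-98 and miR-202. A hairpin with the letters and one without them are shown 5′ to 3′, with GGAG in capitals.
let-7g hairpin: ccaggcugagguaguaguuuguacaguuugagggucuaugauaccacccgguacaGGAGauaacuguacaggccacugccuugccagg
let-7b hairpin: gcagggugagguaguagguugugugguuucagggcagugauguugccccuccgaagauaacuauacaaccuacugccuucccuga

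Every one of the 7 genes held the seed match CTACCTC in its longest annotated 3′ untranslated region (3′ UTR), in the sense of the messenger RNA, per GENCODE M21 on GRCm38 (the mm10 assembly). Of 21018 genes with an annotated 3′ UTR, 9.02% held at least 1 such match. Igf2bp1, Lin28b and Hmga2 each held 4, a number reached or passed by 12 genes, or 0.0571%. Lin28a held 2, and Igf2bp2, Igf2bp3 and Hmga1 held 1 each. In Igf2bp1, 3 of the 4 were followed by A, the base that extends the match, and 7 genes in all had at least 3 of that longer form. The windows below are given on the transcript strand, 5′ to 3′, with the match in capitals and 8 bases on each side; they show all 4 matches of Igf2bp1 and Lin28b, which fell, and the first match of each other gene.
Igf2bp1, chr11:95961771-95961793, minus strand: gaagtaaaCTACCTCaaggtgtg
Igf2bp1, chr11:95959350-95959372, minus strand: gctattaaCTACCTCagccccag
Igf2bp1, chr11:95958756-95958778, minus strand: tggatgaaCTACCTCagtcctca
Igf2bp1, chr11:95958133-95958155, minus strand: gttttaatCTACCTCttagcaaa
Lin28b, chr10:45381015-45381037, minus strand: cgggaagtCTACCTCatgcaagc
Lin28b, chr10:45378641-45378663, minus strand: gttagtaaCTACCTCtgagtttg
Lin28b, chr10:45378469-45378491, minus strand: gcacatggCTACCTCccagctac
Lin28b, chr10:45377053-45377075, minus strand: ggcaccgaCTACCTCttcaatca
Hmga2, chr10:120364217-120364239, minus strand: ttcaatttCTACCTCagcatcag
Lin28a, chr4:134005182-134005204, minus strand: ctgttgaaCTACCTCatttttgc
Igf2bp3, chr6:49086780-49086802, minus strand: ttactcaaCTACCTCaggtattc
Igf2bp2, chr16:22059466-22059488, minus strand: aataaaagCTACCTCaggtgttt
Hmga1, chr17:27563284-27563306, plus strand: ttcacaaaCTACCTCtggacggt
Each window lies in the last exon of its transcript, exon 15 for Igf2bp1 and exon 5 for Lin28b. A match is a run of letters and not a shown site, and its number grows with the length of the 3′ UTR.

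Lin28b and Igf2bp1 fell between the days, and no gene of the 7 rose past the threshold. E18 was compared with E16 by limma on log2(TPM + 1), with p-values adjusted by Benjamini-Hochberg over all 17824 genes tested and a call at adjusted p under 0.05. Of the 7 genes, 6 passed the filter on low values (at least 1 TPM in at least 3 libraries) and Lin28a did not. Of those 6, 2 were called lower at E18 and 0 higher, where 0.387% of all genes tested were called lower, 3.08% higher and 3.47% in either direction. At unadjusted p under 0.05, 4 of the 6 were lower and 1 was higher, where 5.65% of all genes tested were lower and 15.2% higher. Limma's voom on recovered read counts called 3 lower and 0 higher, where it called 0.977% of all genes lower and 7.25% higher. In 4 of the 6 every E18 value lay below every E16 value, against 8.05% of all genes tested, and in 1 every E18 value lay above, against 18.4%. The median log2 fold change of the 6 was -0.87, beside 0.07 over all genes tested. In bulk samples, fewer cells of a type and less RNA per cell cannot be told apart.

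**Figure D1:**
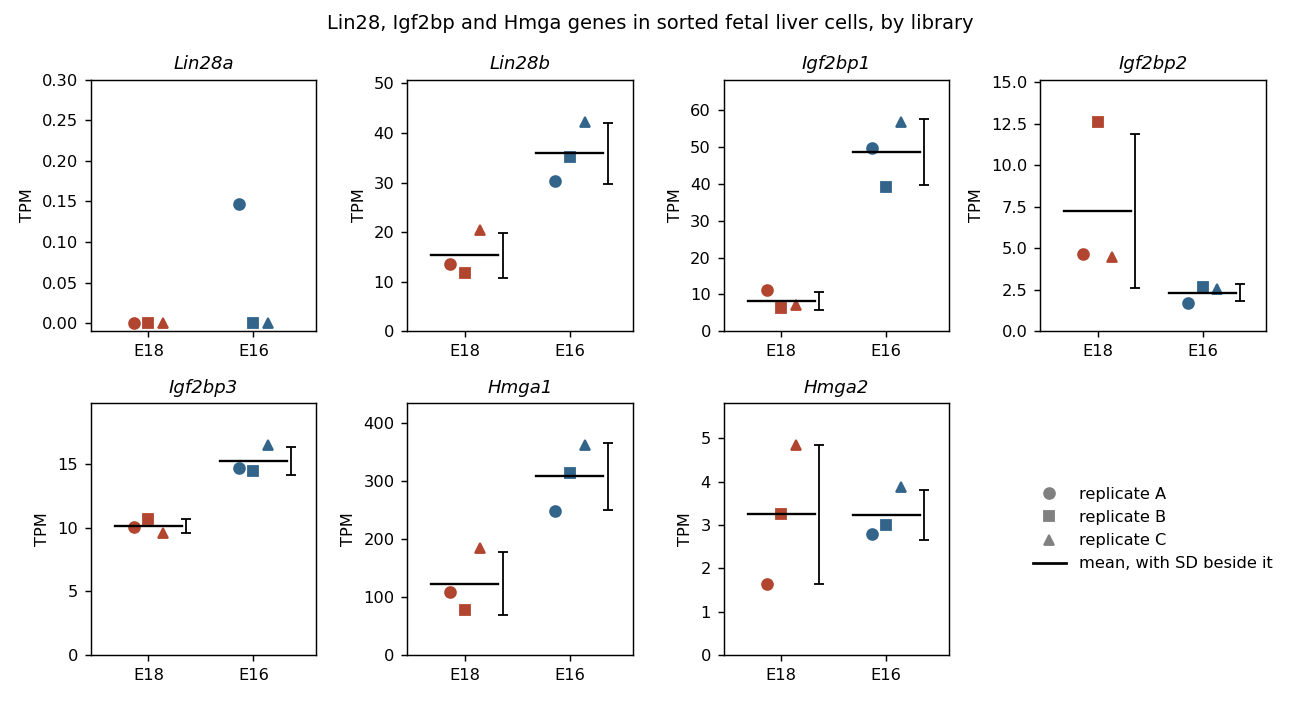
Level of each of the 7 genes in TPM (y axis) in the E18 libraries (left, red) and the E16 libraries (right, blue). Each panel has its own scale, which starts from 0, or just below 0 for Lin28a. Symbols mark replicates A, B and C, and lines with bars beside them give the mean and SD of 3 libraries, left out for Lin28a. Igf2bp1 lies at 6.33 to 11.1 TPM at E18 and 39.2 to 56.9 TPM at E16, with no overlap, while Hmga2 overlaps.

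**Figure D2:**
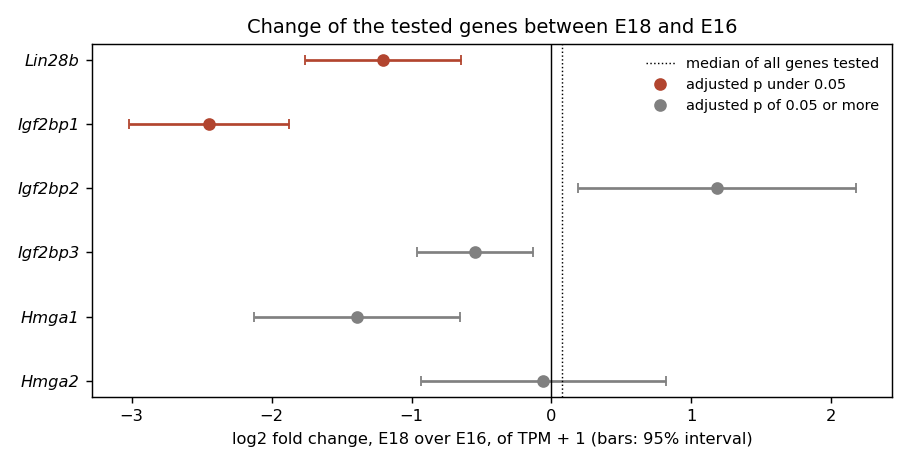
Log2 fold change of E18 over E16 on the scale of log2(TPM + 1) for the 6 genes tested, with 95% intervals from limma. Lin28b and Igf2bp1 (red) passed the adjusted threshold, the dotted line marks the median of all genes tested at 0.07, and the interval of Hmga2 runs from -0.93 to 0.82.

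Of the Lin28 pair, Lin28b carried nearly all of the signal. Lin28b (chr10:45376620-45486395, minus strand) had 13.5, 11.8 and 20.5 TPM in E18 libraries A, B and C, against 30.2, 35.1 and 42.3 TPM in E16 libraries A, B and C. Each E18 library lay below each E16 library, and E18 C stood nearest to E16. The means were 15.3 ± 4.57 TPM at E18 and 35.9 ± 6.07 TPM at E16 (SD, n = 3 each), on 490 to 1025 recovered reads per E18 library and 1870 to 2482 per E16 library. Lin28b fell by 1.20 on the log2 scale (SE 0.24, 95% interval -1.76 to -0.65, limma adjusted p = 0.0447). The call lay close to the threshold: leaving out any 1 library other than E18 C ended it, with adjusted p of 0.106 to 0.136, and without E18 C it was 0.0407.

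Lin28a (chr4:134003330-134018841, minus strand) was listed at 0 in all 3 E18 libraries and in E16 B and C, and at 0.147 TPM in E16 A, where it rested on 4 reads. A count of 0 allows up to 3 reads per library, which corresponds to 0.136 to 0.170 TPM in the E18 libraries and 0.113 to 0.116 TPM in E16 B and C. Both days were thus at or near that limit, and no fold is given. Of the summed TPM of the pair, Lin28b held 100% in each E18 library and 99.5% to 100% in the E16 libraries.

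Among the 6 genes of the 3 families that were tested, Igf2bp1 had the fold change of greatest size. Igf2bp1 (chr11:95957163-96005940, minus strand) had 11.1, 6.33 and 7.20 TPM in E18 libraries A, B and C, against 49.8, 39.2 and 56.9 TPM in E16 libraries A, B and C. The days were far apart, with the highest E18 library well below the lowest E16 library. Its mean was 8.20 ± 2.52 TPM at E18 and 48.6 ± 8.90 TPM at E16 (SD, n = 3 each), a ratio of E18 over E16 of 0.169, on 280 to 473 reads per E18 library and 2521 to 3566 per E16 library. It fell by 2.45 on the log2 scale (SE 0.24, 95% interval -3.02 to -1.88, limma adjusted p = 0.0194) and ranked 15 of the 17824 genes tested by p. Its mean lay above that of 43.5% of the genes tested at E18 and above that of 85.3% at E16. Leaving out E18 A, E18 B, E16 A or E16 C ended the call, with adjusted p of 0.0584 to 0.0864, while the fold change stayed between -2.66 and -2.30 over all 6 such fits.

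Igf2bp3 (chr6:49085223-49214957, minus strand) had 10.1, 10.7 and 9.58 TPM in E18 libraries A, B and C, against 14.7, 14.5 and 16.5 TPM in E16 libraries A, B and C. The values of each day lay close together and the days did not overlap. The log2 fold change was -0.54 (SE 0.18, 95% interval -0.96 to -0.13, limma adjusted p = 0.132), so Igf2bp3 was not called. Of its exon length, 18.7% lies under Malsu1, a gene on the opposite strand; the libraries were stranded, but the strand setting of the counting is not given in the sources used here, so the reads of the 2 genes may not be told apart there.

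Igf2bp2 (chr16:22059009-22163299, minus strand) was at 4.62, 12.6 and 4.47 TPM in E18 libraries A, B and C, against 1.72, 2.68 and 2.57 TPM in E16 libraries A, B and C. All E18 values lay above all E16 values, with E18 B far above the other two. The log2 fold change was 1.18 (SE 0.42, 95% interval 0.19 to 2.18, limma adjusted p = 0.167), so Igf2bp2 was not called. Without E18 B the fold change was 0.75.

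Within the Igf2bp family, Igf2bp1 took a smaller share at E18 in every library. Within a library, Igf2bp1 held 43.0%, 21.3% and 33.9% of the summed TPM of the 3 genes in E18 libraries A, B and C, against 75.2%, 69.6% and 74.9% in E16 libraries A, B and C. Igf2bp3 held 40.1% ± 4.59 at E18 and 23.2% ± 2.16 at E16, and Igf2bp2 held 27.2% ± 13.4 at E18 and 3.58% ± 1.10 at E16 (SD, n = 3 each). None of the 3 shares overlapped between the days; each gave an exact 2-sided permutation p of 0.1, the smallest that 3 against 3 libraries can give. The summed TPM of the family was 25.5 ± 4.20 at E18 and 66.2 ± 9.79 at E16 (SD, n = 3 each). Igf2bp1 was the most abundant of the 3 in every E16 library and in E18 A, Igf2bp2 was in E18 B, and Igf2bp3 was in E18 C.

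**Figure D3:**
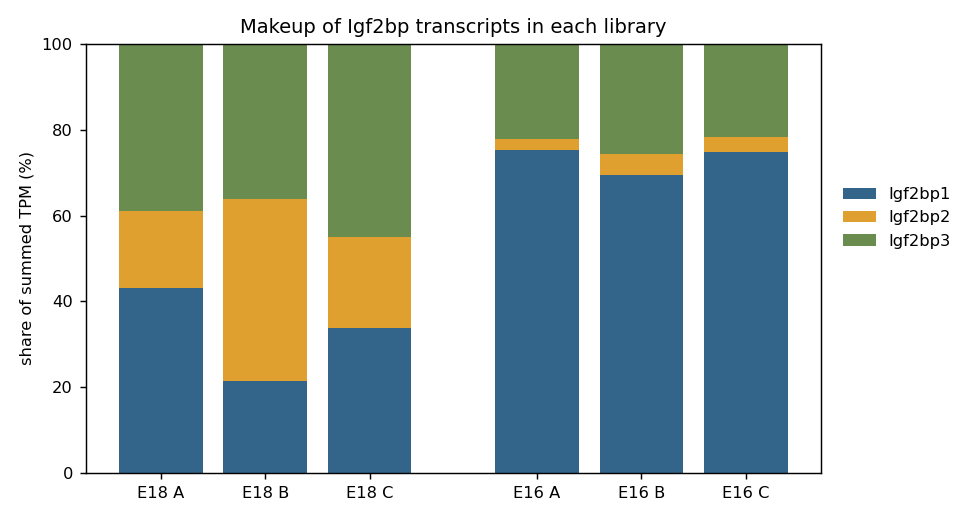
Share of the summed TPM of Igf2bp1, Igf2bp2 and Igf2bp3 (y axis, percent) in each library, with the E18 libraries at the left and the E16 libraries at the right. Igf2bp1 (blue) takes 21.3% to 43.0% of each E18 bar and 69.6% to 75.2% of each E16 bar.

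Hmga1 was the most abundant of the 7 genes on both days. Hmga1 (chr17:27556497-27563674, plus strand) had 108, 77.0 and 183 TPM in E18 libraries A, B and C, against 248, 314 and 361 TPM in E16 libraries A, B and C. The days did not overlap, and E18 C was the highest E18 library, as for Lin28b. Its mean was 123 ± 54.7 TPM at E18 and 308 ± 57.0 TPM at E16 (SD, n = 3 each), above that of 95.5% of the genes tested at E18 and of 98.6% at E16. The log2 fold change was -1.39 (SE 0.31, 95% interval -2.13 to -0.65), and the limma adjusted p of 0.0581 missed the threshold. It passed under 4 of 21 alternatives, one of them leaving out E18 C (log2 fold change -1.72, adjusted p = 0.0399). Hmga1b, a near-identical intronless copy on chromosome 11, had 34.8, 21.4 and 49.6 TPM in E18 libraries A, B and C, against 64.0, 101 and 92.9 TPM in E16 libraries A, B and C. How reads that match both copies were assigned is not given in the sources used here, so the split between Hmga1 and Hmga1b is uncertain; the log2 fold change of Hmga1b was -1.31 (SE 0.31, limma adjusted p = 0.0662).

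Hmga2 (chr10:120361275-120476469, minus strand), the other AT-hook gene, had 1.64, 3.26 and 4.84 TPM in E18 libraries A, B and C, against 2.79, 3.0 and 3.88 TPM in E16 libraries A, B and C. The days overlapped, with both the lowest and the highest library at E18. The log2 fold change was -0.06 (SE 0.37, 95% interval -0.93 to 0.82, limma adjusted p = 0.956), an interval whose lower end lies beyond the change fitted for Igf2bp3. Hmga2 took 2.71% ± 1.29 of the summed TPM of the Hmga1 and Hmga2 pair at E18 and 1.04% ± 0.0856 at E16 (SD, n = 3 each), with an exact 2-sided permutation p of 0.1, the smallest possible. The difference was 1.67 percentage points, and 0.989 without E18 B.

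The order of the 7 genes by mean level also differed between the days. At E18 it ran Hmga1, Lin28b, Igf2bp3, Igf2bp1, Igf2bp2, Hmga2 and Lin28a, and at E16 Hmga1, Igf2bp1, Lin28b, Igf2bp3, Hmga2, Igf2bp2 and Lin28a. The library values of Igf2bp3 and Igf2bp1, of Igf2bp1 and Igf2bp2, and of Igf2bp2 and Hmga2 overlapped at E18, so those neighbours were not separated there. At E16 the overlapping neighbours were Igf2bp1 and Lin28b.

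Mature let-7 was not measured, and the genes of its hairpins had few reads, so the longer genes that hold them were also described. Of the 13 hairpin genes 8 were listed at 0 in all libraries, and 6 of these 8 lie wholly under exons of another gene on their strand. How reads shared by overlapping genes were counted is not given in the sources used here. Mirlet7g, the hairpin with the most reads, had 56.6, 97.0 and 51.4 TPM in E18 libraries A, B and C. In E16 libraries A, B and C it had 46.6, 39.3 and 89.5 TPM. These values rest on only 22 to 51 reads per library, and the days overlapped. A host was taken as any annotated gene that spans a hairpin on its strand, a choice made after first values had been seen. All 13 hairpins had at least 1, with 10 hosts in all, of which 7 were tested. Of these hosts, limma called 2 higher at E18 and 0 lower, beside 3.08% and 0.387% of all genes tested. At unadjusted p under 0.05, 3 were higher and 0 lower, beside 15.2% and 5.65% of all genes, and voom called 3 higher and 0 lower, beside 7.25% and 0.977%.

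Both called hosts were low at E16. Lncppara, a long non-coding RNA gene that holds let-7b and let-7c-2, had 7.38, 17.0 and 7.92 TPM in E18 libraries A, B and C, against 1.64, 0.482 and 1.98 TPM in E16 libraries A, B and C. It rose by 2.28 on the log2 scale (SE 0.43, limma adjusted p = 0.0421), on 61 to 146 reads per E18 library and 6 to 24 per E16 library. The hairpins it holds are both among those with no GGAG between the arms, as in the let-7b hairpin printed above. By contrast, let-7e, held by the other called host, does have GGAG between its arms, and so does let-7c-1. Spaca6, a protein-coding gene named for a sperm acrosome protein that holds let-7e, had 10.1, 15.8 and 9.32 TPM in E18 libraries A, B and C, against 1.18, 1.81 and 2.47 TPM in E16 libraries A, B and C. It rose by 2.17 (SE 0.32, limma adjusted p = 0.0321). In both genes every E18 library lay above every E16 library, and E18 B was the highest.

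No other host passed limma's adjusted threshold, and voom called 3110039I08Rik as well. This gene, which holds let-7a-2, had 2.41, 4.55 and 2.27 TPM in E18 libraries A, B and C, against 0.380, 0.302 and 0.859 TPM in E16 libraries A, B and C (log2 fold change 1.40, SE 0.35, limma adjusted p = 0.0752). Mir99ahg, which holds let-7c-1, did not pass the filter and had 0.840, 2.26 and 1.51 TPM in E18 libraries A, B and C, against 0.174, 0.263 and 0.486 TPM in E16 libraries A, B and C. Neither 3110039I08Rik nor Mir99ahg overlapped between the days; of all genes tested, 18.4% had every E18 value above every E16 value. 4 further hosts overlapped and had adjusted p of 0.452 to 0.893. Among them 6720427I07Rik, which holds let-7a-1, let-7d and let-7f-1, had 38.5 ± 6.44 TPM at E18 and 32.5 ± 6.38 TPM at E16. Wdr82, a subunit of histone methyltransferase complexes whose gene holds let-7g, had 65.3 ± 13.6 TPM at E18 and 68.5 ± 12.2 TPM at E16. Huwe1, a ubiquitin ligase whose gene holds let-7f-2 and miR-98, had 146 ± 14.9 TPM at E18 and 154 ± 5.07 TPM at E16 (SD, n = 3 each). Reads in the exons of a host do not measure how much mature let-7 is made from it.

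**Figure D4:**
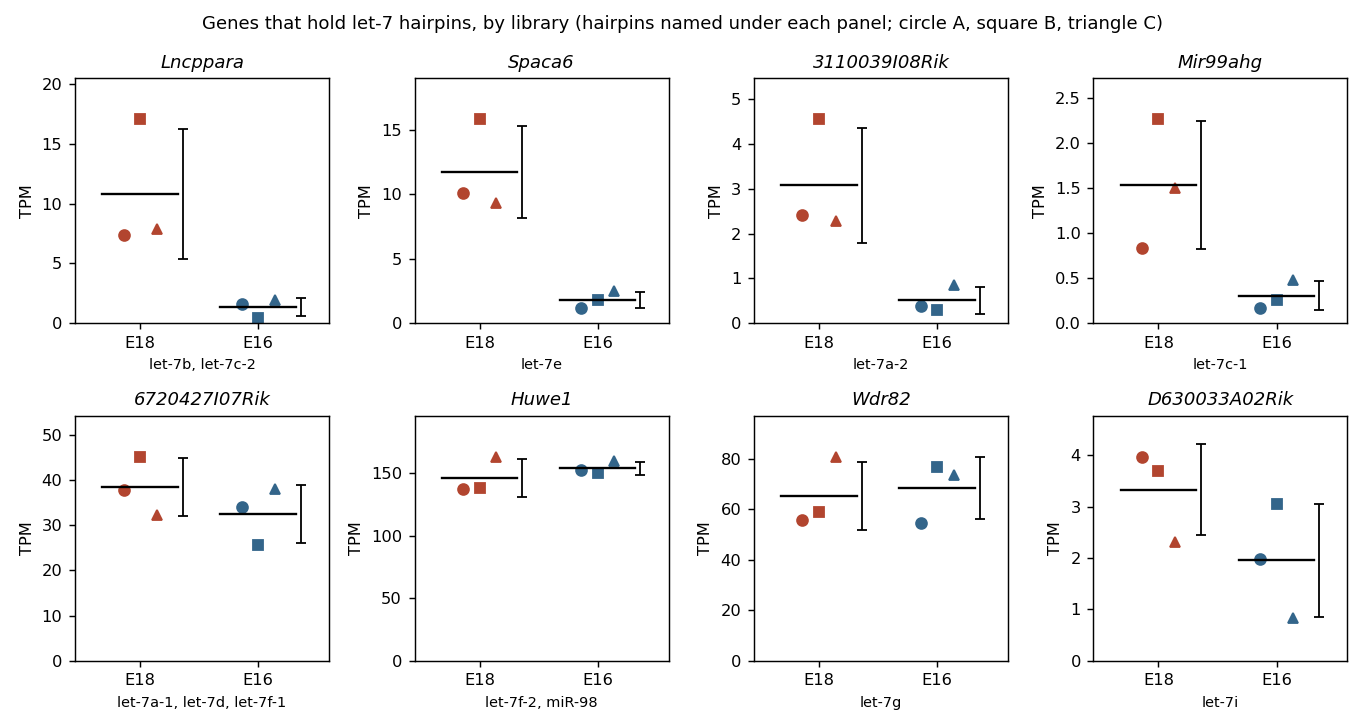
TPM (y axis, its own scale from 0 in each panel) of 8 genes that hold let-7 hairpins in the E18 libraries (left, red) and the E16 libraries (right, blue), with mean and SD of 3 libraries, the symbol for the replicate, and the hairpins named under each panel. The 4 upper panels do not overlap between the days, and of these Lncppara and Spaca6 were called, while the 4 lower panels overlap.

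Genes were then grouped by their number of CTACCTC matches, for the 12133 tested genes with an annotated 3′ UTR. The median log2 fold change was 0.06 over 10880 genes with 0 matches, 0.08 over 1099 genes with 1, -0.01 over 133 with 2, -0.08 over 13 with 3 and -0.24 over 8 with 4 or more. Those 8 include Igf2bp1, Lin28b and Hmga2, so their median is not separate from the genes described above. The other 5 were Hic2 at -0.45, Nr6a1 at -0.33, Nudt12 at -0.15, D10Wsu102e at -0.13 and Zbtb37 at 0.02, with limma adjusted p of 0.434 to 0.974. Of the 8, only Igf2bp1 and Lin28b were called. The 3′ UTR was also longer in the groups with more matches, with a median of 1017 bases at 0 matches and 4451 bases at 4 or more, so matches and length were not separated. Hmga2, with 4 matches, had a log2 fold change of -0.06, whereas Hmga1, with 1 match, had -1.39, and Igf2bp2 and Igf2bp3, each with 1, had 1.18 and -0.54.

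**Figure D5:**
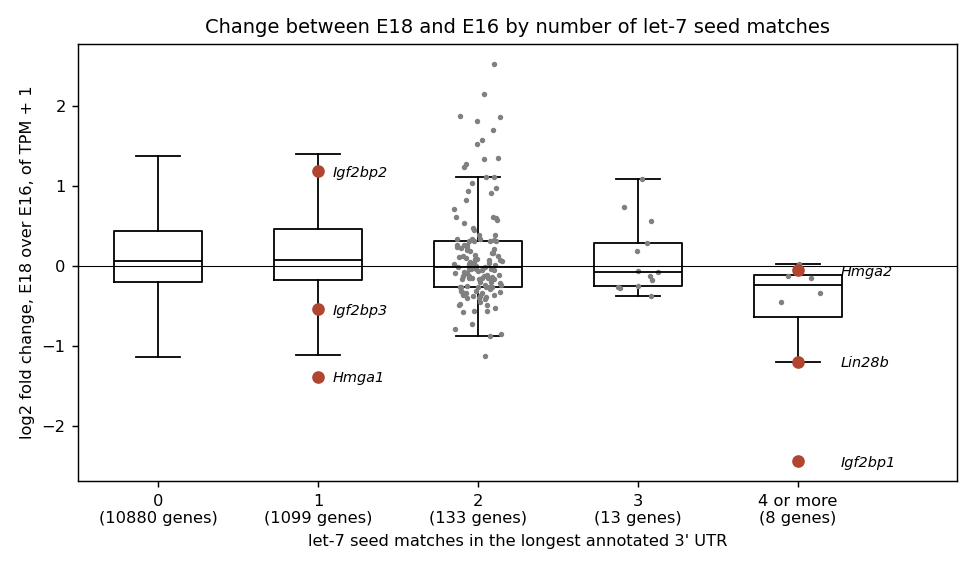
Log2 fold change of E18 over E16 on the scale of log2(TPM + 1) (y axis) by number of let-7 seed matches in the longest annotated 3′ UTR (x axis). Boxes give the median and quartiles and whiskers the values within 1.5 box heights, grey points are single genes in the groups of 133 genes or fewer, and red points are the genes of the 3 families. The 8 genes at the right have a median of -0.24, and Igf2bp1 lies lowest.

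Of 22 listed genes for the processing, uridylation or decay of let-7 precursors, 20 were tested and limma called 0 in either direction. At unadjusted p under 0.05, 3 were higher and 2 lower, and voom called 1 higher. Their median log2 fold change lay at 0.02. The 2 lower genes were Ago1, with a log2 fold change of -0.62, and Xpo5, with -0.49 (limma adjusted p of 0.124 and 0.190). Over all genes, limma called 3.08% higher and 0.387% lower, and voom 7.25% and 0.977%. At unadjusted p under 0.05, 15.2% of all genes were higher and 5.65% lower. The counts for this list and those that follow are to be read beside these shares. Trim25, a ubiquitin ligase and RNA-binding cofactor of Lin28a and Tut4, had 71.8 ± 8.54 TPM at E18 and 50.7 ± 5.28 TPM at E16 (SD, n = 3 each; limma adjusted p = 0.107). Msi1, an RNA-binding protein known to act with Lin28 on let-7 precursors, had 2.70 ± 0.766 TPM at E18 and 0.716 ± 0.464 TPM at E16 (limma adjusted p = 0.117). Transcripts of Tut4 and Dis3l2, enzymes that act after Lin28, were present on both days. The uridylyl transferase Tut4 was at 28.6 ± 0.327 TPM at E18 and 26.2 ± 3.48 TPM at E16. The exonuclease Dis3l2 was at 12.8 ± 1.87 TPM at E18 and 12.8 ± 0.978 TPM at E16 (SD, n = 3 each). Tut4, Dis3l2, Ago1 and Xpo5 were named after their values were seen.

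Known let-7 targets moved both ways. Of 42 listed genes 36 were tested, and their median log2 fold change was -0.07. At unadjusted p under 0.05, 7 were higher and 5 lower, and voom called 5 higher and 2 lower. In 8 every E18 value lay above every E16 value and in 6 below, against 18.4% and 8.05% of all genes tested. Limma called 3 higher and 1 lower. Those that rose were Thbs1 at 3.10, Col3a1 at 2.68 and Col1a2 at 2.59, which encode a matricellular protein and chains of fibrillar collagens (limma adjusted p of 0.0317 to 0.0375); Col1a2 and Col3a1 are also among the matrix markers below. Gnptab, which encodes subunits of the enzyme that tags lysosomal proteins with mannose 6-phosphate, fell by 0.80 (SE 0.16, limma adjusted p = 0.0494), to 21.8 ± 3.34 TPM at E18 against 38.5 ± 3.78 TPM at E16 (SD, n = 3 each). Outside the naming rule, and chosen after their values were seen, are the targets Arid3a, Trim71, Bach1 and Socs1. Bach1 and Socs1 lay higher in every E18 library, with log2 fold changes of 0.62 and 2.22 (limma adjusted p of 0.0650 and 0.0677). Arid3a and Trim71 lay lower in every E18 library. Arid3a, a DNA-binding factor, had 8.15, 8.22 and 10.3 TPM in E18 libraries A, B and C, against 14.4, 17.2 and 20.2 TPM in E16 libraries A, B and C (log2 fold change -0.88, SE 0.21, limma adjusted p = 0.0659). Trim71, the mouse relative of the worm gene lin-41, did not pass the filter and had 1, 1 and 0 reads in E18 libraries A, B and C, against 24, 64 and 43 reads in E16 libraries A, B and C.

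Among targets of the Igf2bp proteins, 31 of 33 listed genes were tested, and the only limma call was Lin28b itself. At unadjusted p under 0.05, 6 were higher and 4 lower, and voom called 3 higher and 1 lower. Their median log2 fold change was 0.05, close to that of all genes tested. H19, an imprinted non-coding RNA, had 524, 817 and 481 TPM in E18 libraries A, B and C, against 255, 669 and 410 TPM in E16 libraries A, B and C. Igf2, the growth factor for which the family is named, had 3.25, 4.63 and 1.90 TPM in E18 libraries A, B and C. In E16 libraries A, B and C it had 1.05, 2.50 and 2.29 TPM. Neither separated the days (limma adjusted p of 0.503 for H19 and 0.521 for Igf2; both were named after their values were seen).

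Other chromatin genes of the high mobility group were also without a call. Of 14 listed genes 12 were tested; limma called 0 in either direction, 1 was higher and 0 lower at unadjusted p under 0.05, voom called 0, and their median was -0.14. Hmg20b, a subunit of a histone demethylase complex, had 18.4 ± 4.16 TPM at E18 and 10.7 ± 0.717 TPM at E16 (limma adjusted p = 0.117), and Hmgb2, a DNA-bending protein of dividing cells, had 115 ± 17.5 TPM at E18 and 94.2 ± 6.56 TPM at E16 (limma adjusted p = 0.369; SD, n = 3 each).

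Other fetal growth genes were called in both directions. Of 24 oncofetal and imprinted growth genes 20 were tested, with 3 called higher, 1 lower and a median log2 fold change of 0.52. At unadjusted p under 0.05, 8 were higher and 3 lower, and voom called 7 higher and 2 lower. Plagl1, an imprinted zinc finger factor, rose by 1.98 (SE 0.40), the imprinted non-coding RNA Meg3 by 1.74 (SE 0.29) and the imprinted cell cycle inhibitor Cdkn1c by 1.44 (SE 0.25), with limma adjusted p of 0.0353 to 0.0473. Afp, the fetal albumin-like protein of hepatocytes, fell by 3.48 (SE 0.59, limma adjusted p = 0.0359) and is also among the hepatocyte markers below. Of 19 genes known to differ between fetal and adult haematopoietic stem cells, 15 were tested, and limma's only call was again Cdkn1c, while voom called 3 higher and 1 lower.

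Of 23 proliferation genes, 22 were tested and limma called 0; at unadjusted p under 0.05, 6 were higher and 0 lower, and voom called 0. Their median log2 fold change lay at 0.20. Nusap1, a spindle protein, had 68.6 ± 6.16 TPM at E18 and 42.9 ± 12.3 TPM at E16 (limma adjusted p = 0.119), and Ube2c, a ubiquitin-conjugating enzyme of mitotic exit, had 40.7 ± 1.19 TPM at E18 and 29.1 ± 4.58 TPM at E16 (limma adjusted p = 0.124; SD, n = 3 each). A list of let-7 precursor genes also had 1 call, Rps6ka6, a kinase gene that holds no let-7 hairpin in the annotation used and was listed by mistake; it fell by 1.86 (SE 0.28, limma adjusted p = 0.0314).

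For each tested gene of the 3 families, the 3 genes whose log2(TPM + 1) followed it most closely were sought over the 6 libraries, among 8202 tested genes with a mean of at least 10 TPM on the higher day. With 6 points that share their libraries and the split by day, and so many genes compared, high coefficients arise readily, and they are given as a description without p. For Lin28b these were Dhps, which makes deoxyhypusine on a translation factor, Utp20, of ribosomal RNA processing, and Mettl13, a methyltransferase. Their Pearson r was 0.996 to 0.997. For Igf2bp1 they were Hells, a chromatin remodelling helicase, Adam17, a membrane sheddase, and Canx, a chaperone of the endoplasmic reticulum (r of 0.986 to 0.993). For Igf2bp2 they were Lifr, a cytokine receptor, Masp1, a protease of the complement system, and Ip6k2, an inositol phosphate kinase (r of 0.996 to 0.997). For Igf2bp3 they were Igsf3, Mettl3, which writes N6-methyladenosine, and Lsm6, of RNA decay and splicing (r of 0.984 to 0.993). For Hmga1 they were Abhd17c, Cluh, which binds messenger RNAs of mitochondrial proteins, and the pseudogene Hspd1-ps3 (r of 0.996 to 0.999). For Hmga2 they included Chchd5 (r of 0.966) and Coro7 (r of 0.956). None of the genes named here was called between the days.

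The sorted cells, labelled mesenchyme, also held transcripts of other cell types, and the markers of several cell types moved with the days. Beside the counts below, limma called 3.08% of all genes tested higher at E18 and 0.387% lower. At unadjusted p under 0.05, 15.2% of all genes tested were higher and 5.65% lower. Of the hepatocyte markers, 8 of 22 tested were called lower at E18, and 20 were lower and 0 higher at unadjusted p under 0.05. Their summed level was 426, 943 and 1102 TPM in E18 libraries A, B and C. In E16 libraries A, B and C it was 3011, 10034 and 2466 TPM. Igf2bp1 was lowest among the E16 libraries in E16 B, where the hepatocyte sum was highest. Among the E18 libraries Igf2bp1 was highest in E18 A, where the hepatocyte sum was lowest and the erythroid sum highest. Lin28b and Hmga1 were highest among the E18 libraries in E18 C, where the hepatocyte sum was highest. Among the E16 libraries they were highest in E16 C, where that sum was lowest. Whether these levels are linked was not tested. Of the erythroid markers 2 of 20 were called higher, and 12 were higher and 0 lower at unadjusted p under 0.05. Their sum was 23408, 22200 and 14404 TPM in E18 libraries A, B and C. In E16 libraries A, B and C it was 8630, 10431 and 9336 TPM. The erythroid sum was lowest among the E18 libraries in E18 C, the E18 library with the highest Lin28b, Hmga1 and Hmga2. Among the E16 libraries it was lowest in E16 A, which had the lowest Lin28b, Hmga1 and Hmga2.

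All 12 fibroblast matrix markers were called higher at E18, with a sum of 2980, 6329 and 2501 TPM in E18 libraries A, B and C. In E16 libraries A, B and C the sum was 441, 555 and 822 TPM. The erythroid sum lay above the matrix sum in every library, and the hepatocyte sum did so in every E16 library and in no E18 library. The lists hold different genes, so their sums do not give shares of cells. Igf2bp2, Lncppara, Spaca6, 3110039I08Rik and Mir99ahg were all highest in E18 B, where the matrix sum was also highest. Among the E16 libraries the matrix sum and the 4 host genes were highest in E16 C, and Igf2bp2 in E16 B. Of the smooth muscle markers 8 of 11 were called higher (207 to 459 TPM at E18 and 22.3 to 60.0 TPM at E16), of the stellate and pericyte markers 5 of 12 (178 to 521 TPM at E18 and 32.2 to 74.3 TPM at E16), and of the mesothelial markers 4 of 8 (198 to 268 TPM at E18 and 154 to 197 TPM at E16). At unadjusted p under 0.05, 11 of 11 smooth muscle, 12 of 12 stellate and pericyte and 7 of 8 mesothelial markers were higher, and 0 were lower. Endothelial markers (1 of 9 tested, 0 called) summed to 18.5 to 26.0 TPM at E18 and 27.7 to 41.3 TPM at E16. Macrophage markers (2 of 9 tested, 0 called) summed to 37.2 to 113 TPM at E18 and 41.9 to 57.0 TPM at E16. Haematopoietic progenitor markers (7 of 10 tested) summed to 106 to 215 TPM at E18 and 129 to 192 TPM at E16. Of these, Cd34 was called higher, at 14.2 ± 5.33 TPM at E18 and 1.44 ± 0.485 TPM at E16. Myb was lower without a call, at 10.8 ± 6.47 TPM at E18 and 27.5 ± 2.87 TPM at E16. Cholangiocyte markers (3 of 7 tested, with Krt19 called higher) summed to 21.3 to 37.4 TPM at E18 and 10.4 to 21.7 TPM at E16. Of the macrophage markers, Adgre1, C1qa, C1qb and C1qc were at 0 in all libraries, and the leukocyte gene Ptprc did not pass 0.143 TPM. Cd68, of the same list, had 80.8 ± 40.2 TPM at E18 and 50.2 ± 7.88 TPM at E16. Csf1r had 2.65 ± 0.820 TPM at E18 and 1.24 ± 0.669 TPM at E16 (SD, n = 3 each).

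Fits that carried the mean level of 1 marker list as a covariate called no gene of the table in either direction (limma adjusted p of 0.237 or more for Igf2bp1). The log2 fold change of Igf2bp1 was -3.27 with the hepatocyte list, -2.71 with the erythroid list and -1.95 with the matrix list as covariate. That of Lin28b was -1.08, -0.40 and -0.63 with the same lists in that order, and that of Hmga1 was -1.15, -0.25 and -0.08. Igf2bp2 turned negative, at -1.65, with the matrix list, and was 1.62 with the hepatocyte list. The sums of these 3 lists do not overlap between the days, so in these fits the day and the makeup of the sorted cells cannot be told apart.

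Read totals, recovered from whole-read steps in the TPM values, were 14587544 to 18281942 at E18 and 21130196 to 22626885 at E16, so the E18 values rest on fewer reads. A single gene, Gm26917, took 22.6% to 26.0% of TPM at E18 and 19.8% to 33.9% at E16. Over all genes tested, 549 were called higher and 69 lower at E18. These calls needed most of the libraries: without E18 A, E18 B, E16 A or E16 C, 0 genes were called in either direction at adjusted p under 0.05, without E16 B 44 were higher and 11 lower, and without E18 C 531 were higher and 133 lower.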

How the data were processed

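RNA was measured in 6 libraries, 3 per day, made with a stranded total RNA kit, per the labels' protocols. The authors deposited TPM values for 54532 genes. Per the submitters' processing notes, HISAT2 2.1.0, HTSeq 0.5.4p3, Bowtie and FastQC 0.11.7 were used with mm10; neither strand setting, annotation nor TPM formula is given in the sources used here. TPM states no depth. Multiplied by merged exon lengths of GENCODE M21, 96.8% to 97.1% of the non-zero values in a library came within 0.05 of a whole number of reads; these recovered reads fed an alternative only. At 1 TPM a gene of 1 kb rests on 4.41 to 6.83 reads; floors of 3 reads cover counting error only.

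The 17824 genes that reached 1 TPM in 3 or more libraries were fitted on log2(TPM + 1) by limma 3.58.1 under R 4.3.3 (intensity trend, no covariates, 2-sided tests), with Benjamini-Hochberg adjustment over all of them. The pseudocount of 1 understates the change of low genes. Shares used exact permutation tests. On 5 simulated sets for this comparison (17824 genes, 200 changed) recovery was 15.8% at 2-fold, 52.8% at 4-fold and 75.2% at 8-fold, with 5.16% false calls.

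The genes and the 19 lists (10 of cell type markers) were chosen with earlier results of these data known. The text names all 7 genes; from each other list the called genes, up to 6 by smallest p, or else the 2 with the smallest p; and 3 genes of most similar pattern per tested gene, of which 1 is not reported here. Let-7 sequences came from RefSeq (GRCm38.p6), positions and 3′ UTRs from GENCODE M21 on GRCm38; only the longest 3′ UTR per gene and its own strand were searched. Alternatives were other pseudocounts, filters and scalings, no trend, array weights, marker covariates, the letter as a block, voom and leaving out each library. Between replicates of a day, chi-square per degree of freedom was 20.9 to 107, so none looked like 1 library deposited again. Analyses ran in Python 3.11.15 with pandas 2.3.3, SciPy 1.17.1 and Matplotlib 3.10.9.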

Additional observations from a re-analysis of the deposited data

How the results depend on the processing

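Over 21 alternatives Igf2bp1 and Lin28b kept a negative log2 fold change, Igf2bp1 from -3.27 to -1.95 with a call in 12, and Lin28b from -1.45 to -0.40 with a call in 7. Hmga1 ranged from -1.72 to -0.08 with a call in 4, and Igf2bp3 from -0.92 to -0.42 with a call in 1. In numbers of genes called higher and lower at E18, beside 549 and 69, and of the 7 genes called lower, beside 2, the alternatives gave the following. A pseudocount of 0.1 left 1 of the 7, and a pseudocount of 5 gave 305, 42 and 1. No filter gave 0, 0 and 0, with more low genes tested. A filter of 5 TPM gave 360 higher, and quantile normalization 314 higher and 1 of the 7. Median-of-ratios scaling gave 106 lower, scaling without mitochondrial genes and Gm26917 140 lower and 3 of the 7, no intensity trend 1 of the 7, array weights 2795, 1521 and 4, and voom on recovered reads 1291, 174 and 3. The covariate fits each gave 0, 0 and 0. Leaving out 1 library gave 0 to 531 higher, 0 to 133 lower and 0 to 3 of the 7. The cause of these differences was not tested.

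With the letter as a replicate block 0 genes were called higher, 0 lower and 0 of the 7 lower, with limma adjusted p of 0.0820 for Igf2bp1 and 0.0915 for Lin28b. Same-letter libraries of the 2 days deviated with correlations of 0.102, -0.139 and -0.117 for A, B and C, so the letters were not taken as pairs. Hmga2 changed sign to 0.34 with the hepatocyte covariate, 1.23 with the erythroid covariate, and without 1 library it ran from -0.32 to 0.25, positive at 0.25 without E18 A and at 0.05 without E16 C; Igf2bp2 changed sign to -1.65 with the matrix covariate. The share of Hmga2 differed by 4.84 percentage points on recovered reads and by 1.67 on TPM, since reads are not per length, and by 0.989 on TPM without E18 B. Quantile normalization moved the median of all genes to -0.08 and the matrix covariate to -0.09, from 0.07. Depth limits Lin28a, Trim71 and the hairpin genes.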
